A study of Mus musculus with 6 samples.

Results

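Colon of GPR43 KO mice was set against colon of GPR41 KO mice: 2 arrays against 2, chosen by their sample titles out of the 6 arrays of the series. The other 2 arrays, of wild type (WT) colon, are used here to place a difference and to estimate the spread. Both proteins are cell surface receptors that signal through G proteins. GPR41 is the product of Ffar3 and GPR43 of Ffar2, and their ligands are acetate, propionate and butyrate, the short-chain fatty acids that gut bacteria make from fibre. In colon these receptors are known from hormone-producing epithelial cells, and GPR43 also from neutrophils and other leukocytes. The comparison asks how colon that lacks one receptor differs from colon that lacks the other.

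All mice were C57BL/6 and 6 to 8 weeks old, and every group, WT included, received ethanol by the rectal route and gave its colon 24 h later. Which part of each gene was deleted, the sex of the mice and whether the 2 arrays of a line came from separate animals are not stated in the labels. The p-values below therefore measure only the spread between these samples, which may be technical. Each value is the signal of 1 probe set, a group of probes for 1 transcript, on an arbitrary linear scale. The 64 control probe sets were left out, and each of the 18193 genes is represented by its probe set with the highest mean of 6 arrays. Differences are means of log2(signal + 18) in GPR43 KO minus GPR41 KO with the standard error (SE) of a limma fit, n = 2 arrays per line. They understate the fold of weak genes, because the added 18 pulls low values together.

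Libraries that stand apart come first. In the library labelled GPR43 KO replicate 1 the targeted gene Ffar2 was not low, as detailed below. The median probe set signal was 80.9 in GPR41 KO replicate 1 and 91.9 to 96.8 in the other 5 arrays. In every array the colon was recognisable by the goblet cell mucin Muc2, at 38837 to 59047. The highest Xist probe set read 13873 to 21106 in every array, and the 9 probe sets of Y-linked genes stayed at 0.176 to 54.3. WT colon stood apart from both lines. The 8 pairs of a WT array and a KO array had 1765 to 2490 genes at least 2-fold apart.

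The 2 knockout lines could hardly be told apart. GPR41 KO replicates 1 and 2 had 1525 genes at least 2-fold apart, and the 2 GPR43 KO arrays had 1684. Pairs made of 1 array of each line had 1721, 1475, 1654 and 1574 such genes. The numbers between lines thus span those within lines. In limma 0 of the 18193 genes were called higher in GPR43 KO (0%) and 0 lower (0%) at an adjusted p of 0.05, and the smallest adjusted p was 0.901. At an unadjusted limma p under 0.05 there were 986 genes (5.42%), of which 604 were higher (3.32%) and 382 lower (2.1%). With 2 arrays on each side, exact permutation reaches no two-sided p under 0.333.

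**Figure D1:**
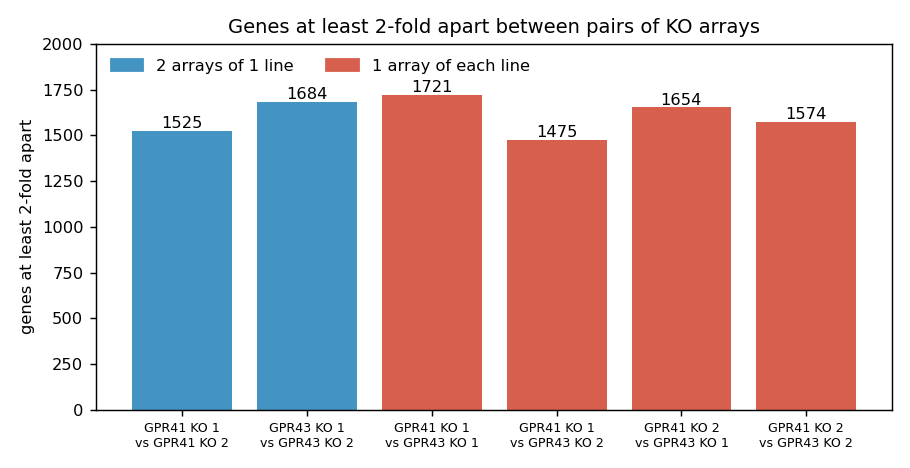
Number of genes, of 18193, whose log2(signal + 18) differed by at least 1 between 2 KO arrays; blue bars compare 2 arrays of 1 line, red bars 1 array of each line. The blue bars stand at 1525 and 1684 and the red bars between 1475 and 1721.

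Which line was the generally higher one depended on the scaling. In 6547 genes (36%) the lines did not overlap, 3974 with GPR43 KO higher (21.8%) and 2573 with it lower (14.1%). With each array centred on its median log2 value these became 2673 higher and 3585 lower, and the genes at an unadjusted p under 0.05 became 341 higher and 604 lower. After quantile normalization the surplus stayed with GPR43 KO, with 3649 genes higher and 2831 lower without overlap. At an unadjusted limma p under 0.05 there were then 529 higher and 437 lower. The surplus of higher genes thus depends on the scaling. The median difference over all genes was 0.04 as deposited, and -0.04 with median centring.

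A mean difference of 2-fold was rarely shared by both arrays of each line. Of the 556 genes that reached it, 323 were higher in GPR43 KO (1.78%) and 233 lower (1.28%). Only 116 of them (20.9%, or 0.638% of all genes) had every array of one line at least 2-fold from every array of the other. In 180 (32.4%) a single array lay at least 2-fold from the other 3, which lay within 2-fold of each other. A further 253 (45.5%) did not overlap but had nearest arrays under 2-fold apart, and 7 (1.3%) overlapped. Over all genes, 71 differed in both arrays as higher in GPR43 KO (0.39%) and 45 as lower (0.247%). The split was 64 and 60 after quantile normalization, and 61 and 63 with median centring. A single array carried 1078 genes (5.93%): 260 by GPR41 KO replicate 1 (1.43%), 278 by GPR41 KO replicate 2 (1.53%), 297 by the library labelled GPR43 KO replicate 1 (1.63%) and 243 by GPR43 KO replicate 2 (1.34%). GPR41 KO replicate 1 was the high one in 75 genes (0.412%) and the low one in 185 (1.02%), and GPR41 KO replicate 2 in 162 (0.89%) and 116 (0.638%). The library labelled GPR43 KO replicate 1 was high in 167 (0.918%) and low in 130 (0.715%), and GPR43 KO replicate 2 in 108 (0.594%) and 135 (0.742%). These numbers were alike between arrays, but not among stronger signals: above the 40th percentile of mean signal GPR41 KO replicate 2 carried 53 genes and the other KO arrays 22, 20 and 21.

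Ffar2 itself was of the 1-array kind. Its stronger probe set gave signals of 1857 and 1933 for GPR41 KO, of 1598 for the library labelled GPR43 KO replicate 1 and of 189.0 for GPR43 KO replicate 2, against 1194 and 1118 for WT. The second probe set gave the same order, with 1229 and 1345 for GPR41 KO, 1142 for the library labelled GPR43 KO replicate 1 and 76.3 for GPR43 KO replicate 2. Only GPR43 KO replicate 2 was low: it held 9.98% of the GPR41 KO mean, while the library labelled GPR43 KO replicate 1 held 84.3%. The lines did not overlap, yet the difference of -1.73 ± 0.72 did not pass (limma adjusted p = 0.908). It was -3.21 when the library labelled GPR43 KO replicate 1 was left out and -0.24 when GPR43 KO replicate 2 was. Each of these fits leaves 1 GPR43 KO array, and the arrays were told apart by Ffar2 itself, so neither is a test of the lines. The labels do not say whether these probe sets lie in the deleted part, and both were low in GPR43 KO replicate 2. No probe set carried the symbol Ffar3 alone, which leaves the GPR41 KO label unchecked. Every direction below rests on a line of which 1 library goes against its label.

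No other receptor for short-chain fatty acids or related metabolites separated the lines. Of 12 receptors on the list 9 had a probe set with 1 symbol, and Ffar2 was the only one at an unadjusted limma p under 0.05. Ffar4, a receptor for long-chain fatty acids, read 1259 and 1059 in GPR41 KO and 1014 and 1134 in GPR43 KO, a difference of -0.11 ± 0.14. Gpr35, a receptor for tryptophan metabolites, read 213 and 238 in GPR41 KO and 183 and 339 in GPR43 KO, so the lines overlapped (0.14 ± 0.29). Hcar2, the niacin and butyrate receptor, had signals of 40.6 and 50.6 for GPR41 KO, 78.3 for the library labelled GPR43 KO replicate 1 and 3.78 for GPR43 KO replicate 2. These were all far below its 854 and 1377 in WT, and the lines overlapped (-0.47 ± 0.62). The propionate-responsive olfactory receptor Olfr78 differed by -0.28 ± 0.34, the succinate receptor Sucnr1 by -0.85 ± 0.50, the lactate receptor Hcar1 by -0.03 ± 0.37, Gpr84 for medium-chain fatty acids by 0.07 ± 0.48, and Olfr558 by 0.44 ± 0.66. The last 4 had no KO signal above 76.3. The 14 transporters of monocarboxylates and fatty acids held 0 members at an unadjusted limma p under 0.05, with a median of -0.07.

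**Figure D2:**
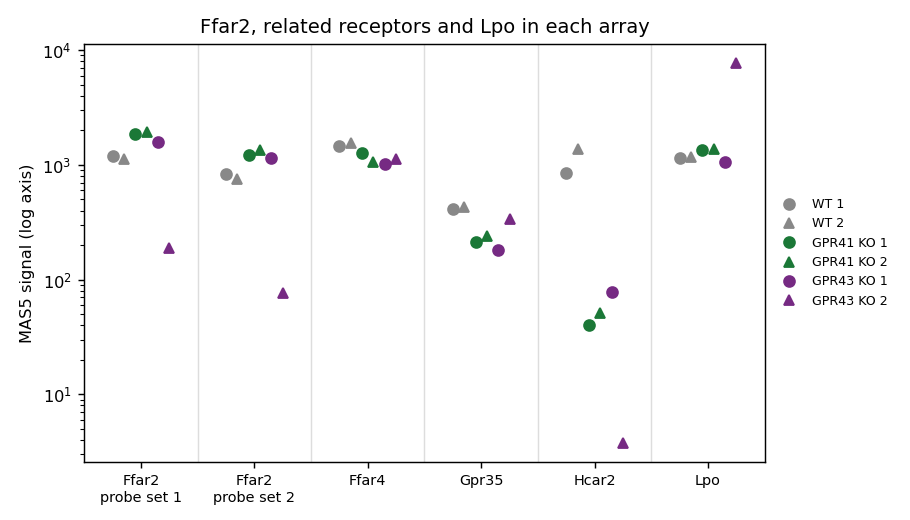
Signal of both Ffar2 probe sets, 3 related receptors and Lpo in each of the 6 arrays, on a log axis; circles are replicate 1 and triangles replicate 2. GPR43 KO replicate 2 is the low point for both Ffar2 probe sets (189.0 and 76.3) and the high point for Lpo (7738).

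GPR43 KO replicate 2 also carried Lpo, which encodes the secreted antimicrobial enzyme lactoperoxidase. Lpo signals were 1343 and 1370 for GPR41 KO, 1070 for the library labelled GPR43 KO replicate 1 and 7738 for GPR43 KO replicate 2, with WT at 1159 and 1175. The other arrays thus lay within a narrow band and GPR43 KO replicate 2 was 6.14 times the mean signal of the other 3 KO arrays. Its mean difference was 1.08 ± 0.69. It was 2.50 when the library labelled GPR43 KO replicate 1 was left out and -0.34 when GPR43 KO replicate 2 was. Each of these fits rests on 1 GPR43 KO array and is no test of the lines.

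Neighbours of Ffar2 were looked at as a group. Within 5 Mb of Ffar2, 178 genes were measured, of which 15 (8.43%) had an unadjusted limma p under 0.05, against 5.42% of all genes. Of these 178, 1 differed in both arrays as higher (0.39% of all genes), Cyp2b13 (1.71 ± 0.56), and 1 as lower (0.247% of all genes), Slc7a10 (-1.26 ± 0.54). Both are weak, with signals up to 110 and 47.1 in any array. The 2 GPR43 KO arrays were at least 2-fold apart in 20 of the 178 (11.2%), against 9.26% of all genes.

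Bcar1 was the clearest gene that differed in both arrays of each line. It encodes p130Cas, a docking protein of integrin signalling. It read 701 and 513 in GPR41 KO and 2639 and 2354 in GPR43 KO, a difference of 2.02 ± 0.37 (limma unadjusted p = 0.00043). Both GPR43 KO arrays were above WT, which itself read 1983 and 755. The second Bcar1 probe set read 849 and 857 in GPR41 KO and 858 and 779 in GPR43 KO, so that the probe sets disagree and the difference belongs to what the first one reads. Bcar1 passed with the 4 KO arrays alone (limma adjusted p = 0.0339) and without WT replicate 1 (0.0431) or WT replicate 2 (0.0332), whose signals are further apart than those of either KO line.

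Chil1, a chitinase-like secreted protein made by macrophages and inflamed epithelium, was higher in GPR43 KO. It read 34.8 and 74.4 in GPR41 KO and 198 and 178 in GPR43 KO, a difference of 1.56 ± 0.36, while WT was higher still at 616 and 1000. Il2rb, a receptor chain for interleukins 2 and 15 on T and NK cells, read 19.3 and 23.7 in GPR41 KO and 113 and 111 in GPR43 KO (1.72 ± 0.37). GPR43 KO was at the WT level of 97.5 and 127, and both GPR41 KO arrays lay below it. A weaker Il2rb probe set differed by 0.55 with overlapping lines. C130026I21Rik read 30.9 and 24.3 in GPR41 KO and 112 and 123 in GPR43 KO (1.58 ± 0.35), with WT at 211 and 179. The largest mean differences with GPR43 KO higher were Fam216b (2.07 ± 0.40) and Fads2b (2.06 ± 0.42), whose signals of 3.88 to 6.11 in GPR41 KO are near the low end of the scale.

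In the other direction Sdr42e1, a dehydrogenase and reductase family gene, read 983 and 997 in GPR41 KO and 431 and 469 in GPR43 KO. The difference was -1.11 ± 0.21, the arrays of each line were close together, and WT read 789 and 513. Tnfsf13os, an antisense transcript of the gene for the B cell factor APRIL, had signals of 649 and 624 for GPR41 KO, 22.3 for the library labelled GPR43 KO replicate 1 and 289 for GPR43 KO replicate 2 (-2.56 ± 0.73). Most of that gap came from the library labelled GPR43 KO replicate 1. Without GPR43 KO replicate 2, which leaves 1 array of the line, the Tnfsf13os difference was -4.02. The weaker Tnfsf13os probe set differed by 0.26. Treml1, a receptor of platelet granules, read 171 and 103 in GPR41 KO and 18.5 and 16.2 in GPR43 KO (-2.09 ± 0.47). The oocyte genes Zar1, which read 99.0 and 115 in GPR41 KO and 13.5 and 19.9 in GPR43 KO (-1.85 ± 0.40), and Zp2 (-1.99 ± 0.62) were weak in all KO arrays.

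**Figure D3:**
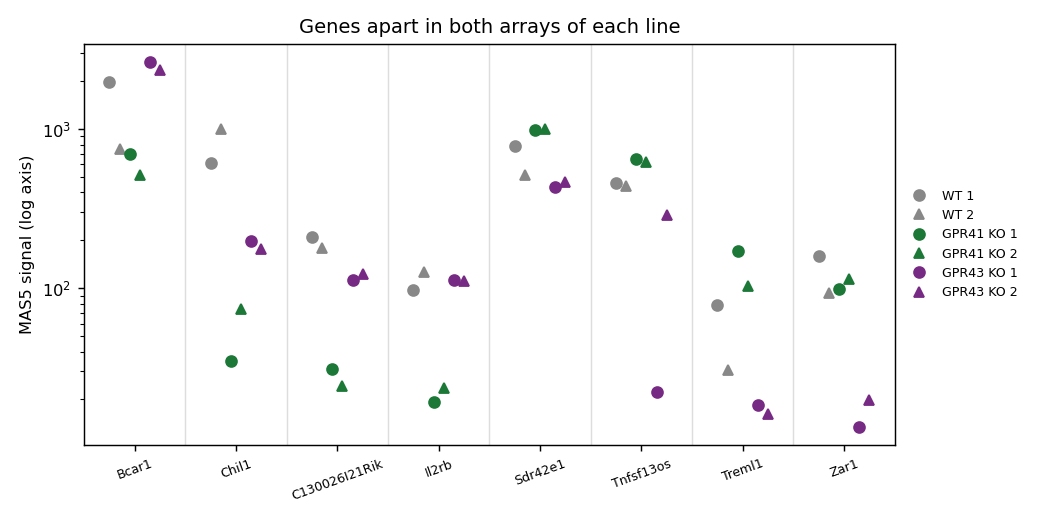
Signal in each of the 6 arrays, on a log axis, of 8 genes in which every array of one line lay at least 2-fold, on the log2(signal + 18) scale, from every array of the other; circles are replicate 1 and triangles replicate 2. Bcar1 and Sdr42e1 keep the lines apart at signals of 431 or more, and Treml1 and Zar1 have GPR43 KO signals of 13.5 to 19.9.

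Differences shared by both arrays lay mostly among weak signals. Of the 71 higher genes, 61 had a mean signal under 100 in the line that was higher (median 61.9), and of the 45 lower genes 38 (median 59.4). Over all genes 35.1% were that weak. With the added constant at 72 in place of 18, Bcar1 alone stayed in this class. Among genes above the 40th percentile of mean signal it held Bcar1 and Chil1 as higher and Sdr42e1 and Tnfsf13os as lower. The WT mean lay nearer to GPR43 KO than to GPR41 KO in 41 of the 71 higher and 27 of the 45 lower genes, against 50.0% of all genes.

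The gene with the smallest limma p was the heat shock gene Hspa1b, and Hspa1a and Hsph1 ranked 4 and 6, all lower in GPR43 KO. Hspa1b and Hspa1a encode the inducible chaperone HSP70, and Hsph1 its helper HSP110. Hspa1b read 2789 and 2686 in GPR41 KO and 1194 and 1503 in GPR43 KO, a difference of -1.02 ± 0.14 (limma unadjusted p = 6.9e-05, adjusted p = 0.901). WT, at 2678 and 2299, was like GPR41 KO. Its other probe sets differed by -1.19 and -0.62. Hspa1a read 886 and 742 in GPR41 KO and 312 and 377 in GPR43 KO (-1.20 ± 0.20), with WT between them at 507 and 680. Hsph1 read 3228 and 2537 in GPR41 KO and 1675 and 1571 in GPR43 KO (-0.81 ± 0.14), below WT at 2161 and 2430.

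In the whole list of heat shock and unfolded protein response genes, 7 of 21 members were lower at an unadjusted limma p under 0.05 (2.1% of all genes) and 0 were higher. The others of the 7 were the cytosolic chaperone Hsp90aa1 (-0.50 ± 0.13), the stress transcription factor Atf3 (-0.51 ± 0.17), and Pdia4 (-0.36 ± 0.12) and Creld2 (-0.37 ± 0.15) of the endoplasmic reticulum. The list's median was -0.15, against 0.04 over all genes, and leaving out GPR41 KO replicate 1 it was -0.085, or leaving out its partner -0.31. GPR41 KO replicate 1 was the highest KO array for 15 of the 21 members. The count was 4 without GPR41 KO replicate 1 and 4 without GPR43 KO replicate 2. Hspa1a and Hspa1b are near-identical neighbours, their 300-base promoters in RefSeq (GRCm38.p6) match at 296 positions, and signal may be shared between their probe sets. A heat shock element, searched on both strands as GAA, TTC and GAA, or TTC, GAA and TTC, with 2 free bases between each, was found in the promoter of Hsph1 and in neither of the other two. It was in 1 of the 19 list members with a promoter (5.26%) and in 0.603% of 32851 promoters. Looser forms of the element were not searched for. A match, or the lack of one, is a description of letters in this window and not of binding.

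Immediate early genes, the first to be transcribed after a stimulus, were lower in GPR43 KO in 6 of 26 members (2.1% of all genes) and higher in 1 (3.32%) at an unadjusted limma p under 0.05, with a median of -0.23. Fos read 9175 and 5910 in GPR41 KO and 4166 and 4616 in GPR43 KO (-0.75 ± 0.19), with WT below both lines at 3391 and 3848. Egr1 read 1658 and 1791 in GPR41 KO and 1124 and 884 in GPR43 KO (-0.78 ± 0.28). Nr4a1 was lower by the mean (-1.16 ± 0.39), but GPR41 KO replicate 2 at 1283 stood apart from 518, 403 and 313 in the other KO arrays. The phosphatases that switch off ERK signalling, Dusp6 (-0.51 ± 0.15) and Dusp5 (-0.56 ± 0.24), and Atf3 of the list above were the other lower members. Jun alone was higher, at 2162 and 2479 in GPR41 KO and 2802 and 3051 in GPR43 KO (0.33 ± 0.12). The count in either direction, 7, became 3 without GPR41 KO replicate 1, 4 without GPR43 KO replicate 2 and 4 without the library labelled GPR43 KO replicate 1. The median became -0.13 without GPR41 KO replicate 1 and -0.14 without GPR43 KO replicate 2.

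Fatty acid synthesis genes were lower in GPR43 KO in 4 of 15 members (2.1% of all genes) and higher in 0 (3.32%) at an unadjusted limma p under 0.05 (median -0.19). Thrsp, a lipogenic regulator, read 519 and 396 in GPR41 KO and 220 and 218 in GPR43 KO (-0.99 ± 0.25). Scd1, the stearoyl-CoA desaturase, read 1996 and 1913 against 1280 and 1508 (-0.49 ± 0.13). The weaker Scd1 probe set differed by -0.07, with overlapping lines. Malic enzyme Me1 (-0.62 ± 0.22) and fatty acid synthase Fasn (-0.33 ± 0.12) were the other members. For all 4 genes WT was lower still, so GPR43 KO lay between WT and GPR41 KO. The count was 2 without GPR41 KO replicate 1 and 2 without GPR43 KO replicate 2, where the median became -0.12.

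Circadian clock genes had a median of 0.19, and 4 of 18 members stood at an unadjusted limma p under 0.05. Nr1d1, which encodes the repressor REV-ERBalpha, read 401 and 476 in GPR41 KO and 750 and 755 in GPR43 KO, a difference of 0.76 ± 0.17, with WT at 412 and 466. Dbp, a transcription factor of the clock's output, read 493 and 372 in GPR41 KO and 611 and 677 in GPR43 KO (0.57 ± 0.20). Ciart was higher (1.27 ± 0.46), mostly through its low 30.1 in GPR41 KO replicate 1. The repressor Cry1 was lower (-0.66 ± 0.28). These were the 3 higher (3.32% of all genes) and 1 lower (2.1%), the count was 2 with a median of 0.081 without GPR43 KO replicate 2, and the median was 0.35 without the library labelled GPR43 KO replicate 1. The labels do not state the hour of tissue collection.

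**Figure D4:**
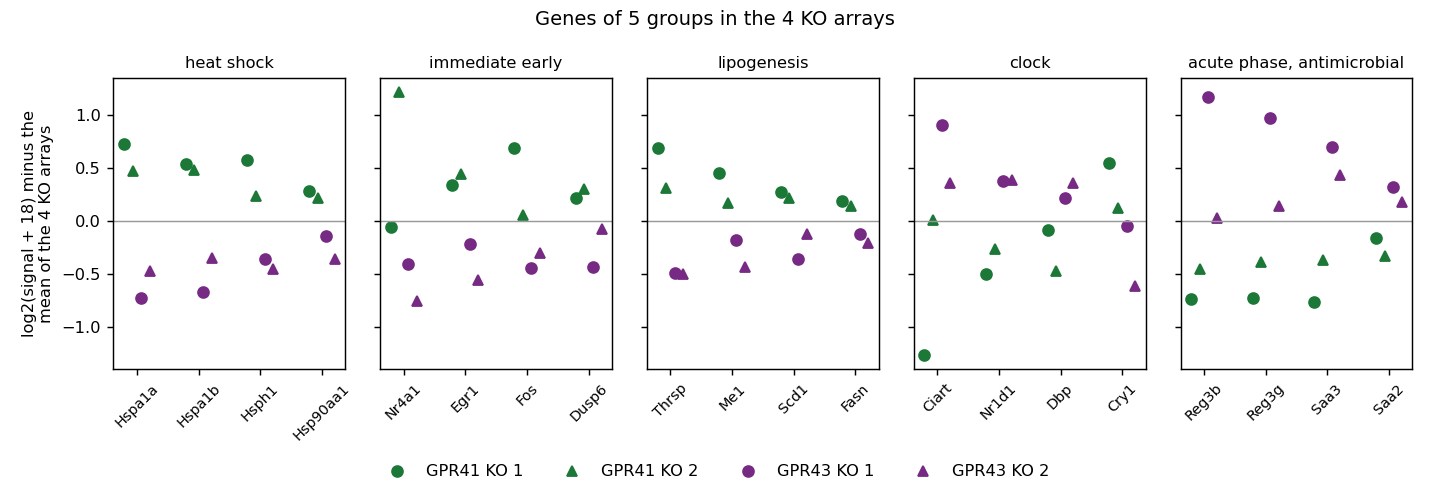
Log2(signal + 18) of 20 genes in the 4 KO arrays, each minus the gene's mean over those arrays; green is GPR41 KO, purple GPR43 KO, circles replicate 1 and triangles replicate 2. The heat shock and lipogenesis genes have both purple points below both green points, as Hspa1b does at a mean difference of -1.02, while Reg3b and Reg3g have 1 purple point far above the other.

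Antimicrobial and acute phase genes were higher in GPR43 KO in 6 of 22 members (3.32% of all genes) and lower in 0 (2.1%) at an unadjusted limma p under 0.05 (median 0.25). Reg3b, a lectin that kills bacteria, had signals of 6469 and 7833 for GPR41 KO, 24240 for the library labelled GPR43 KO replicate 1 and 10954 for GPR43 KO replicate 2 (1.19 ± 0.39). Reg3g had the same order at 1244, 1578, 4087 and 2291 (1.12 ± 0.34). The acute phase gene Saa3 read 186 and 251 in GPR41 KO and 546 and 452 in GPR43 KO (1.14 ± 0.24), a small step beside the 19930 and 33708 of WT. Saa2 (0.49 ± 0.21), Saa1 (0.41 ± 0.16) and S100a8 (1.19 ± 0.43) were the other members. Without the library labelled GPR43 KO replicate 1, whose Ffar2 was not low, 1 member had an unadjusted p under 0.05 and the median was 0.070. Without GPR43 KO replicate 2 the median was 0.66, and without GPR41 KO replicate 1 it was 0.46.

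Neutrophil markers moved with that library. S100a8 had signals of 356 and 254 for GPR41 KO, 1202 for the library labelled GPR43 KO replicate 1 and 414 for GPR43 KO replicate 2, and its partner S100a9 336, 203, 1147 and 239. Of 18 neutrophil markers, 12 were highest among the KO arrays in the library labelled GPR43 KO replicate 1. Their summed signal was 4407 there, 1827 and 1723 in GPR41 KO and 1848 in GPR43 KO replicate 2, against 84687 and 152577 in WT. At an unadjusted limma p under 0.05, 2 members were higher (3.32% of all genes), S100a8 and Lrg1 (0.68 ± 0.28), and 1 was lower (2.1%), Fpr2 (-1.29 ± 0.50). There were 0 without that library and 6 without GPR43 KO replicate 2. The part of these cells in the values of Reg3b and Saa3 was not tested.

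Interferon-stimulated genes, which cells turn on in response to interferons and viral RNA, formed the largest block, and 1 array carried it. All 44 measured members were at their highest of the 4 KO arrays in GPR41 KO replicate 2, and 31 lay at least 2-fold above the other 3 arrays, where 0.89% of all genes did so. Usp18, which restrains interferon receptor signalling, read 1588 in GPR41 KO replicate 2 and 122, 158 and 133 in the other KO arrays. Oasl2 of the 2'-5'-oligoadenylate synthetase family read 3861 against 384, 438 and 357. Ifit1, which binds viral RNA, read 4845 against 518, 798 and 498. Ddx60 (1518 against 140, 174 and 142) and the RNA sensor Dhx58 (600 against 80.3, 84.6 and 56.3) had the same form. GPR41 KO replicate 1 thus lay with the GPR43 KO arrays and not with its own partner.

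Promoters of the carried members with the 4 largest gaps and a RefSeq entry are shown because interferon acts through a known DNA motif, the interferon-stimulated response element. Each runs 5′ to 3′ from 250 bases before to 50 after the start of transcription (GRCm38.p6). Capitals mark each match, on either strand, to GAAA, 2 free bases and GAAA. The windows are chr5:114896684-114896983 on the + strand for Oasl2, chr8:61927837-61928136 on the + strand for Ddx60, chr19:34640639-34640938 on the + strand for Ifit1 and chr7:104465144-104465443 on the - strand for Trim30a, an interferon-inducible TRIM protein, at the first of its 2 listed starts.
Oasl2: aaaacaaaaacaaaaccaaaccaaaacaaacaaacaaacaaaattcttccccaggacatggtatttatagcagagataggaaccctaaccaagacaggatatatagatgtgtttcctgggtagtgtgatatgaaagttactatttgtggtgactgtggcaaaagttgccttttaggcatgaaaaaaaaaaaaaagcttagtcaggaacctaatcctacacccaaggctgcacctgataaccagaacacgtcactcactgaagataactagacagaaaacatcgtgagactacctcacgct
Ddx60: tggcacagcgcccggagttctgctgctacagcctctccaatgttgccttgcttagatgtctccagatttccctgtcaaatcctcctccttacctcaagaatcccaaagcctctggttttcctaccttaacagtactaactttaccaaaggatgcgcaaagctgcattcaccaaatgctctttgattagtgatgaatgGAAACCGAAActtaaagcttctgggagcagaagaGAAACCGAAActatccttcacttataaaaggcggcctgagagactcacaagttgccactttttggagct
Ifit1: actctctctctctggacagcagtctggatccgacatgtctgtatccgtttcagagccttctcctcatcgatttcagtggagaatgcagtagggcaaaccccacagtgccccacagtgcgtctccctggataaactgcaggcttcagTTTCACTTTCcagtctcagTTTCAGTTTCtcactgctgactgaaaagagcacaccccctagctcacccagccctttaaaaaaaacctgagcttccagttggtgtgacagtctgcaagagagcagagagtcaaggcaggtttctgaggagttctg
Trim30a: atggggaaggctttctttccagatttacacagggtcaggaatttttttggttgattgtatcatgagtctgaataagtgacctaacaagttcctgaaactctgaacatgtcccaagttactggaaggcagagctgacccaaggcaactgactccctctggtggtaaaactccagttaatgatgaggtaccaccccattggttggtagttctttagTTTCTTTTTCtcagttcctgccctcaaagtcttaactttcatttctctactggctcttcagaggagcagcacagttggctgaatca
Ddx60 and Ifit1 held 2 matches each, Trim30a 1, and Oasl2 had none of these letters in this window. Of the 31 carried members 21 had a promoter and 12 of those (57.1%) held a match, as did 18 of 31 promoters over the whole list (58.1%) and 3.44% of 32851 promoters. A match is a description of letters and not of binding.

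**Figure D5:**
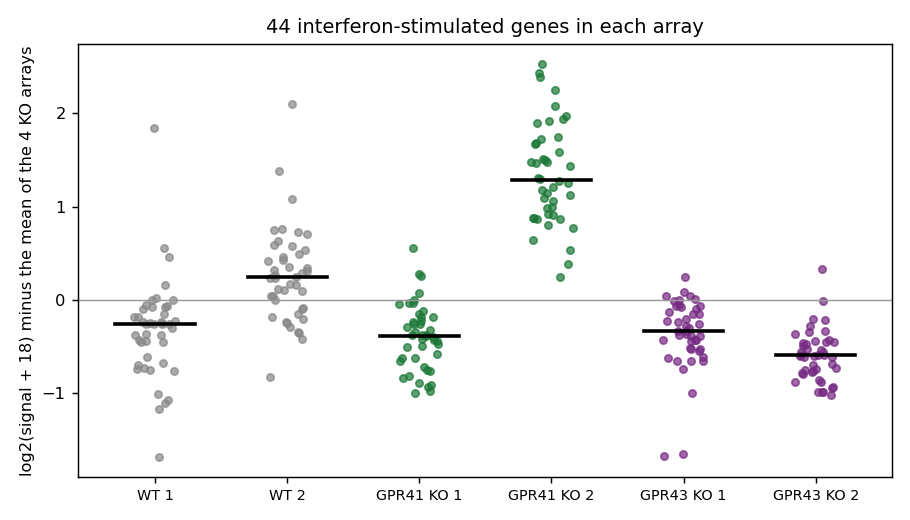
Log2(signal + 18) of 44 interferon-stimulated genes in each array, each minus the gene's mean over the 4 KO arrays; points are genes and black bars medians. The median stands at 1.28 in GPR41 KO replicate 2, at -0.38 in GPR41 KO replicate 1, and at -0.33 and -0.59 in the GPR43 KO arrays.

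By the mean of the lines the interferon list had a median difference of -0.97, with 10 of 44 members lower at an unadjusted limma p under 0.05 (2.1% of all genes). Without GPR41 KO replicate 2 the median was -0.02 with 2 members, and without GPR41 KO replicate 1 it was -1.78 with 40. The count was 22 with median centring, 4 without GPR43 KO replicate 2 and 3 without the library labelled GPR43 KO replicate 1. In 13 members GPR43 KO was lower without overlap (14.1% of all genes). As GPR41 KO replicate 2 was the highest KO array in all 44, this needs only GPR41 KO replicate 1 above both GPR43 KO arrays. The 13 thus follow in part from 1 array and cannot be weighed against the 14.1%. The transcription factor Irf7 read 3075 and 6096 in GPR41 KO and 2291 and 2089 in GPR43 KO (-0.98 ± 0.26). Mx2 read 74.9 and 239 against 21 and 21.2 (-1.98 ± 0.64), and the T cell chemokine Cxcl9 84.9 and 206 against 4.35 and 28.3 (-2.24 ± 0.85). Another Cxcl9 probe set differed by -1.01 with overlapping lines.

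Some genes of cytotoxic lymphocytes were high in the same array. Granzyme A (Gzma) read 800 in GPR41 KO replicate 2 and 238, 273 and 200 in the other KO arrays, granzyme B (Gzmb) 373 against 152, 95.2 and 70.9, and the chemokine Ccl5 1200 against 383, 422 and 315. Over the 21 T and NK cell markers the summed signal was 5301 in that array and 3259 to 3725 in the others, and 10 of the 21 were highest there, 3 were lowest there and 3 were carried by it. Il2rb of the same list, at 23.7 in that array, lay far below both GPR43 KO arrays. Whether these cells take part in the interferon values was not tested.

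Of the 1078 genes carried by 1 array, 195 had a mean signal of 100 or more in the higher line. Low here means low among the KO arrays, and WT is given beside each gene. The library labelled GPR43 KO replicate 1 was low for Apoc2, an activator of lipoprotein lipase, at 274 against 1106, 1244 and 1093. WT read 569 and 587. The same library was low for Igsf23, at 461 against 2546, 1947 and 1631, with WT at 465 and 412. It was also low for the proton pump subunit Atp12a, at 1513 against 4319, 4184 and 3407, with WT at 710 and 628. The weak Acod1, the itaconate-making enzyme of activated macrophages, read 73.2 there and 3.53 to 4.15 in the other KO arrays, far below its 1715 and 3433 in WT. GPR43 KO replicate 2 was low for the fat cell hormone Adipoq, at 109 against 368, 311 and 267, with WT at 40.7 and 174. It was also low for the carbonic anhydrase Car3, at 572 against 1433, 1375 and 1213, with WT lower still at 136 and 240. GPR41 KO replicate 1 was low for Wdfy1, an endosomal protein that differs between mouse strains, at 298 against 966, 1586 and 1043. WT read 1568 and 1244.

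Markers of the stroma leaned to GPR43 KO without passing a test. Of 22 fibroblast markers 11 were higher without overlap and 0 lower, and of 19 endothelial markers 12 and 0. Of 21 macrophage markers the numbers were 11 and 0, where 21.8% of all genes were higher without overlap. At an unadjusted limma p under 0.05, 3, 2 and 0 of these markers were higher (3.32% of all genes) and 0 lower (2.1%). GPR41 KO replicate 1 was the lowest KO array for 16, 13 and 19 of these markers. Medians were 0.30, 0.25 and 0.33, and became 0.11, 0.22 and 0.12 without GPR41 KO replicate 1. Smooth muscle markers leaned the same way, with 8 of 19 higher without overlap, 0 lower and a median of 0.21. That median was 0.092 without GPR41 KO replicate 1, the lowest KO array for 18 of the 19. Named members were fibronectin (Fn1, 0.36 ± 0.14), Pdgfrb (0.96 ± 0.37, through 590 in GPR43 KO replicate 2 against 219, 182 and 278), and the endothelial Cd34 (0.60 ± 0.17) and Tie1 (0.87 ± 0.36). In bulk tissue fewer cells of a type and less RNA per cell cannot be told apart. Goblet cell markers had a median of 0.16 and absorptive colonocyte markers of -0.08, with 0 and 1 members at an unadjusted limma p under 0.05.

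Further single genes without overlap between the lines were picked for a small p, or from a list, after their values were seen. 2210407C18Rik read 4915 and 8068 in GPR41 KO and 1478 and 2551 in GPR43 KO (-1.69 ± 0.28), with WT at 1310 and 1093. Bckdha, a subunit of the enzyme that breaks down branched-chain amino acids, read 791 and 891 against 1397 and 1419 (0.73 ± 0.13). Il18, an epithelial cytokine of the interleukin 1 family, read 3123 and 3160 against 4377 and 4792 (0.54 ± 0.12). The monocyte chemokine Ccl8 read 973 and 1103 against 627 and 467 (-0.91 ± 0.17), and C2cd4b 1834 and 1431 against 943 and 794 (-0.89 ± 0.15). Ro60, an RNA-binding autoantigen, read 364 and 319 against 681 and 813 (1.09 ± 0.17), while its other probe sets differed by 0.79, 0.13 and -0.56. Of 24 proliferation genes 4 had an unadjusted limma p under 0.05, all lower (2.1% of all genes), and the list's median was -0.05. They were the replication genes Rrm2 (-0.45 ± 0.12), Mcm2 (-0.44 ± 0.13), Mcm3 (-0.34 ± 0.14) and Tyms (-0.92 ± 0.37). The other Tyms probe sets differed by 0.15, 0.37 and -0.64, with overlapping lines. Of the cytokines Osm was higher (1.38 ± 0.53) and Il11 lower (-1.38 ± 0.58), both at KO signals up to 126.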

How the data were processed

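Colon RNA of 6 samples was labelled with biotin from 2 µg of total RNA and hybridised to 1 mouse Affymetrix array each. The authors deposited 1 intensity for each probe set, made with MAS5 per the submitters' processing notes (version not given in the sources used here). Scaling came before deposit, since each array has a mean of 500.0 once 2% of its probe sets are trimmed at each end. MAS5 subtracts background, so ratios of weak signals are unstable. Detection calls, scan dates and array images were not used here.

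Of 45101 probe sets, 34945 had 1 gene symbol in the platform annotation, 932 several and 9211 none, and 13 of the 64 controls also had 1; the controls were left out, only probe sets with 1 symbol were used, and 34741 matched RefSeq by Entrez identifier. No filter on weak signals was set. limma 3.58.1 (R 4.3.3; lmFit, eBayes with an intensity trend) was fitted to all 6 arrays with 1 mean per group, with 3 residual degrees of freedom, raised to 8.67. Tests were two-sided, with Benjamini-Hochberg adjustment over 18193 genes and a threshold of 0.05. The step was checked on simulated data. The number of arrays limits the precision. Deviations of same-numbered arrays of both lines correlated at -0.03 across genes. Such a value cannot settle whether arrays of equal number were handled together, and the labels do not say.

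The comparison, its gene lists and members were chosen with earlier results of these data known. Genes could be named as the 15 largest differences shared by both arrays in each direction, the 10 largest gaps carried by each array and direction, all measured receptors, and the 4 largest differences of each of 46 lists, with promoters for the 4 largest gaps of a list. Others, among them those listed by unadjusted p and the heat shock element, were chosen after their values were seen. Alternatives covered the added constant, the scaling, filters, probe set choice, fit, gap and arrays left out.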

Additional observations from a re-analysis of the deposited data

How the results depend on the processing

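Genes called: 0 higher and 0 lower were called under every alternative run apart from 1 higher with the 4 KO arrays only and, leaving out 1 array each, 0 to 1 higher and 0 to 1 lower. Those were Bcar1 without either WT array, Tnfsf13os without GPR43 KO replicate 2, and Lpo and Ffar2 without the other library labelled GPR43 KO. The replicate block takes equal replicate numbers as pairs, though nothing says they are. A block with the numbers of 1 line swapped was also fitted and is not among the alternatives counted here. With the equal numbers 0 genes were called and 849 had an unadjusted limma p under 0.05. That count was 596 for genes above the 40th percentile of mean signal, 418 above the 60th, 1883 for every probe set on its own, and 751 to 1111 with 1 array left out.

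Genes that differed in both arrays, higher and lower, numbered 241 and 206 with a constant of 1, 1 and 0 with 72, 113 and 72 with a floor of 18, 2 and 2 above the 40th percentile, 1 and 1 above the 60th, 150 and 119 for every probe set, 268 and 168 at a log2 gap of 0.6, and 11 and 4 at 1.5. With 1 array left out they numbered 259 to 375 and 166 to 290, since fewer arrays must then be apart. The 4 lower genes were Treml1, Zar1, Zp2 and Il20. Of the 116 genes, 107 were shared with quantile normalization and 105 with median centring.

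Genes carried by 1 array numbered, for GPR41 KO replicate 1, 498 with a constant of 1, 10 with 72, 22 above the 40th and 5 above the 60th percentile, 538 for every probe set, 602 at a gap of 0.6 and 39 at 1.5. For GPR41 KO replicate 2 they were 52 with 72, 53, 33, 580, 493 and 65 in that order. For the library labelled GPR43 KO replicate 1 they were 474 with a constant of 1, then 17, 20, 9, 682, 655 and 68, and for GPR43 KO replicate 2 418, then 14, 21, 7, 551, 509 and 47. The cause of the drop at 72 and with the filters was not tested beyond the weak signals given above.

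Of 1420 recomputed differences of 87 named genes, 1397 kept direction and side of the threshold, 6 passed it (the calls above, 3 of them Bcar1) and 17 turned. With all arrays, Olfr78 became 0.12 as the mean over its probe sets and Gpr84 -0.016 with median centring. The others turned with 1 array left out, and their ranges over the arrays left out were: Ffar4 -0.23 to 0.017, Hcar1 -0.12 to 0.056, Hcar2 -1.54 to 0.60, Gpr84 -0.23 to 0.37, Gpr35 -0.28 to 0.55, Olfr558 -0.28 to 1.16, Lpo -0.34 to 2.50, S100a9 -0.12 to 2.06, Acod1 -0.040 to 2.04, Usp18 -3.30 to 0.22, Oasl2 -3.23 to 0.042, Ddx60 -3.14 to 0.14 and Ifit1 -2.91 to 0.28. The last 4 turned only without GPR41 KO replicate 2.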
